A study of Mus musculus with 47 samples.

Results

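Sterol and fatty acid synthesis genes are described here as a list of 32 mouse genes, each found by its symbol among the 22632 rows of the deposited expression table. The list holds 4 regulators, 7 genes of the mevalonate and isoprenoid steps, 11 of the steps from squalene to cholesterol with sterol transfer, 5 for acetyl-CoA, NADPH and fatty acid synthesis, and 5 for desaturation and elongation. One member, Hmgcs1, the enzyme that makes HMG-CoA, had 2 rows in the table, and both were listed at 0 in all 47 libraries. Nothing is reported on its level, and 31 members were tested in every comparison.

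The study sequenced messenger RNA of mouse cells that were reprogrammed from secondary embryonic fibroblasts, which carry the reprogramming factors in a form switched on by doxycycline. The 8 clones fell into classes titled SC and SI, with 4 clones each, names that the labels leave unexplained. Both classes were sampled on doxycycline at days 14, 21 and 27 (d14, d21, d27), and after 21 days with the drug followed by 1 or 2 days without it (d22, d23). Secondary iPS cells of the 4 SC clones had 21 days with the drug and 6 without, and 3 libraries of feeder mouse embryonic fibroblasts had no doxycycline. Every clone group held 4 libraries, 1 per clone, and clones are given in the order 1 to 4 wherever values are listed. The labels tie the feeder libraries to none of the clones. P-values reflect the spread among these clones alone, and for iPS cells against feeders also the spread among the 3 feeder libraries.

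Cells make cholesterol from acetyl-CoA through mevalonate, isoprenoid units, squalene and lanosterol, and fatty acids from the same acetyl-CoA through malonyl-CoA. The transcription factors SREBP-2 and SREBP-1, encoded by Srebf2 and Srebf1, raise the genes of these routes when sterols are low. SCAP carries the factors out of the endoplasmic reticulum, and INSIG proteins hold them there when sterols are plentiful. Dividing cells use both routes to build membrane.

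All 31 measured members reached at least 1 RPKM (read counts corrected for gene length and for the size of the library) in every library, between 1.16 and 338.4 RPKM. Per length, the highest group mean belonged to Scd2, a stearoyl-CoA desaturase, at 277 ± 64.6 RPKM (SD, n = 4) in SI d21. The widest span over the 12 groups was that of its relative Scd1, from 25.0 RPKM in SC iPS to 95.4 in SI d21, a ratio of 3.82. Elovl6, the elongase of long fatty acids, spanned a ratio of 3.78, Me1, a malic enzyme that makes NADPH, 3.59, Pmvk, phosphomevalonate kinase, 3.51, and Fasn, the fatty acid synthase, 3.44. Nsdhl, a sterol dehydrogenase, spanned 1.27, the least. The mean of log2(RPKM + 1) over the members ran only from 3.69 ± 0.14 (SD, n = 4) in SI d23 to 4.03 ± 0.08 in SC d21, while single members moved in opposite directions. In the heat map of group means, Me1, Sc5d and Hsd17b7 are high in SI d23 and in the feeders, where Elovl6, Pmvk and Fasn are low.

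**Figure D1:**
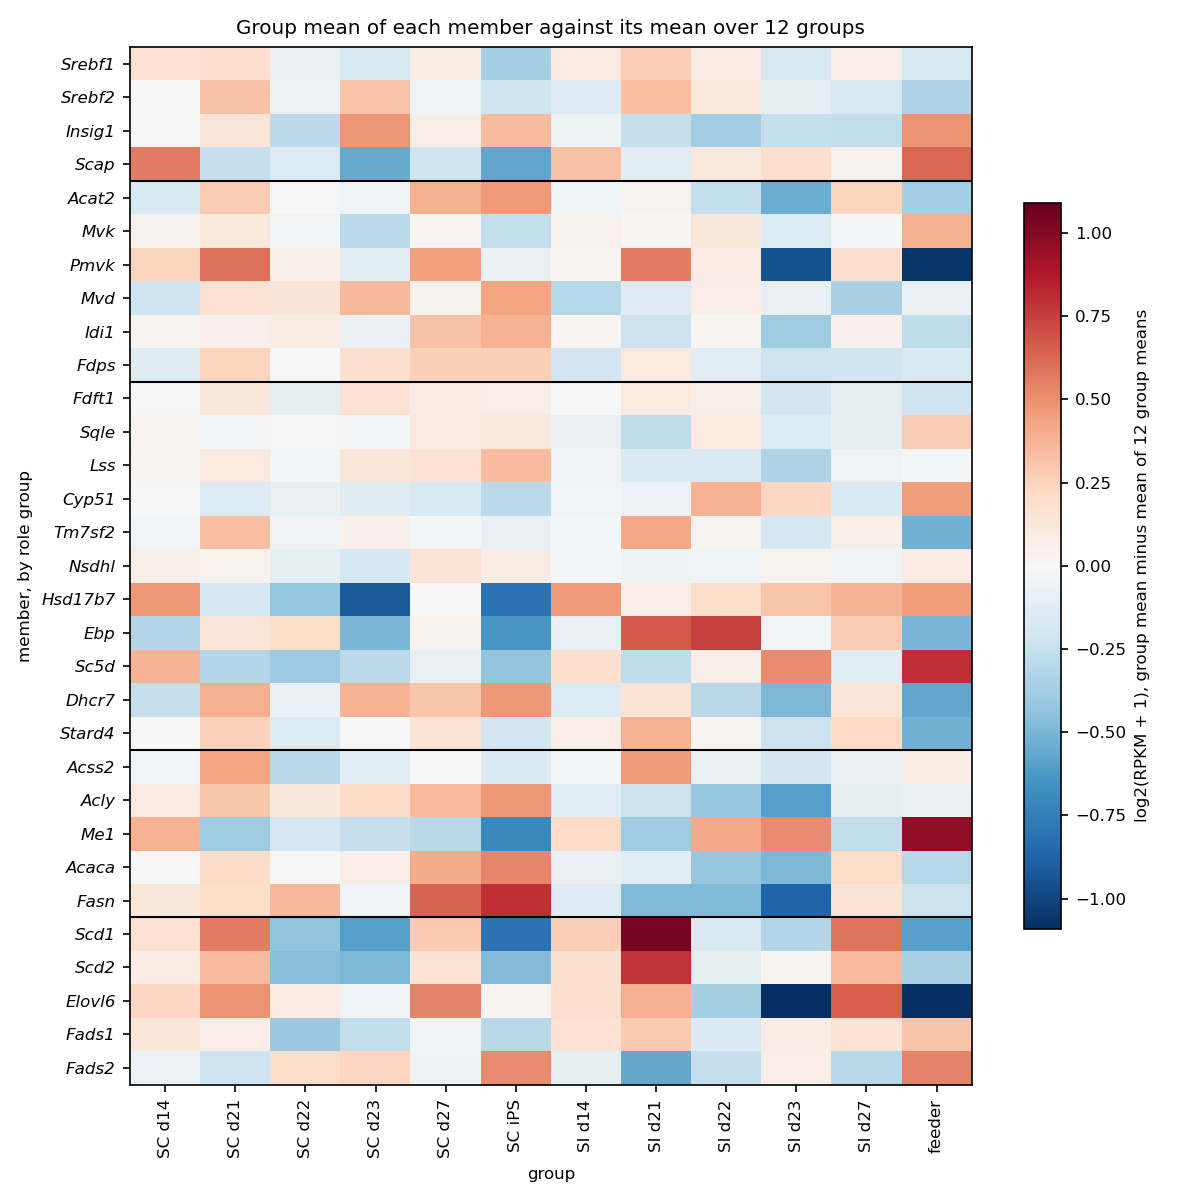
Each cell is the group mean of log2(RPKM + 1) of a member (rows, in role order, 31 measured members) minus that member's mean over the 12 groups (columns), red above and blue below. Elovl6 and Pmvk are darkest blue in SI d23 and in the feeders, and Me1 and Sc5d are red in both.

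Among the comparisons of times within a class, the most members changed when doxycycline was removed from the SI clones. At d23 against d21, 17 of 31 members passed the threshold (limma, Benjamini-Hochberg adjusted p under 0.05), 13 lower and 4 higher. Of the 11796 genes tested, 54.6% were called in either direction, 32% lower and 22.7% higher. The members' share of calls, 54.8%, lay at that background. The median change was -0.34 on the log2(RPKM + 1) scale for the members and -0.12 for all genes. With the clone as a block 21 members were called, 5 higher and 16 lower, where 63.4% of genes were called. The SI changes from d21 to d23 in the next paragraphs are from the fit without a block. In bulk libraries such as these, fewer cells of a type and less RNA per cell cannot be told apart.

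The falls were led by 3 genes. Pmvk measured 22.6, 26.2, 13.7 and 21.7 RPKM at d21 and 8.11, 5.50, 4.62 and 8.89 at d23 in the SI clones. Its groups did not overlap, and the change was -1.51 ± 0.24 (SE; adjusted p = 0.00109). Elovl6 measured 18.5, 14.3, 16.6 and 18.5 RPKM at d21 and 6.44, 4.63, 4.66 and 5.96 at d23, again without overlap. This was -1.49 ± 0.14 (SE; adjusted p = 0.000114), with falls between -1.39 and -1.64 in the 4 clones. Scd1, which puts the first double bond into stearic and palmitic acid, fell from 126, 108, 57.1 and 91.3 RPKM to 47.8, 40.0, 20.7 and 39.0, a change of -1.35 ± 0.30 (SE; adjusted p = 0.00539). Each clone lost Scd1, and the SI3 library was the lowest at both times.

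Scd2 went from 327, 319, 186 and 274 RPKM to 203, 168, 118 and 156, a change of -0.77 ± 0.22 (SE; adjusted p = 0.018). It fell in all 4 clones although the groups overlapped, since SI3 started low. Among the other fatty acid genes, Acly (citrate to acetyl-CoA) changed by -0.37, Acaca (acetyl-CoA to malonyl-CoA) by -0.37 and Acss2 (acetate to acetyl-CoA) by -0.67. All 3 passed the threshold. Fasn itself did not: it measured 36.0, 24.1, 45.3 and 30.6 RPKM at d21 and 27.0, 24.6, 24.4 and 24.3 at d23 (log2 change -0.39, adjusted p = 0.0848). At d21 the SI2 library was already below all 4 libraries of d23.

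On the sterol side, the thiolase Acat2 changed by -0.58 and the sterol reductases Tm7sf2 and Dhcr7 by -0.61 and -0.63. The isomerase Ebp changed by -0.69 and the sterol carrier Stard4 by -0.61, and all these genes passed the threshold. Among the regulators, Srebf1 changed by -0.44, also past the threshold. Srebf1 measured 19.0, 21.3, 15.1 and 19.1 RPKM at d21 and 15.1, 14.8, 11.1 and 12.7 at d23. The groups touched without overlapping, as SI3 at d21 stood just above SI1 at d23. Srebf2 was lower at d23 in all 4 clones, at 46.2, 39.7, 26.0 and 38.0 RPKM against 70.2, 53.9, 31.9 and 51.2. It missed the threshold in the fit without a block (log2 change -0.43, adjusted p = 0.17).

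Insig1, Idi1 and Sqle did not pass the threshold. Insig1 measured 13.6, 12.2, 11.1 and 11.2 RPKM in the SI clones at d21 and 12.2, 10.3, 11.8 and 13.5 at d23. Idi1, the isopentenyl diphosphate isomerase, measured 1.91, 2.28, 2.18 and 2.23 RPKM at d21 and 1.83, 1.82, 1.63 and 2.09 at d23, lower in all 4 clones. Sqle, squalene epoxidase, measured 10.9, 10.6, 13.4 and 10.8 RPKM at d21 and 13.6, 10.7, 13.0 and 12.9 at d23. The groups overlapped for each, with log2 changes of -0.01, -0.15 and 0.13 and 95% intervals of -0.27 to 0.25, -0.37 to 0.08 and -0.14 to 0.39.

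The 4 rises in SI were Me1, Sc5d, Fads2 and Cyp51. Me1 measured 4.49, 4.58, 8.13 and 5.69 RPKM at d21 and 10.4, 10.1, 14.1 and 11.2 at d23, 0.91 ± 0.18 (SE; adjusted p = 0.00324). Sc5d, the lathosterol desaturase, measured 11.9, 9.07, 15.7 and 12.1 RPKM at d21 and 22.3, 18.4, 22.1 and 23.1 at d23, 0.79 ± 0.16 (SE; adjusted p = 0.00324). Both genes rose in 4 of 4 clones with no overlap between the times. Fads2, the first desaturase of polyunsaturated fatty acids, went from 12.4, 14.2, 21.9 and 12.8 RPKM to 25.5, 22.8, 23.5 and 22.6, 0.63 ± 0.17 (SE; adjusted p = 0.0135). Cyp51, the lanosterol demethylase, went from 19.6 ± 1.76 RPKM (SD, n = 4) to 24.3 ± 2.45, 0.29 ± 0.11 (SE; adjusted p = 0.0484). The rise of Cyp51 was the smallest of the 4.

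**Figure D2:**
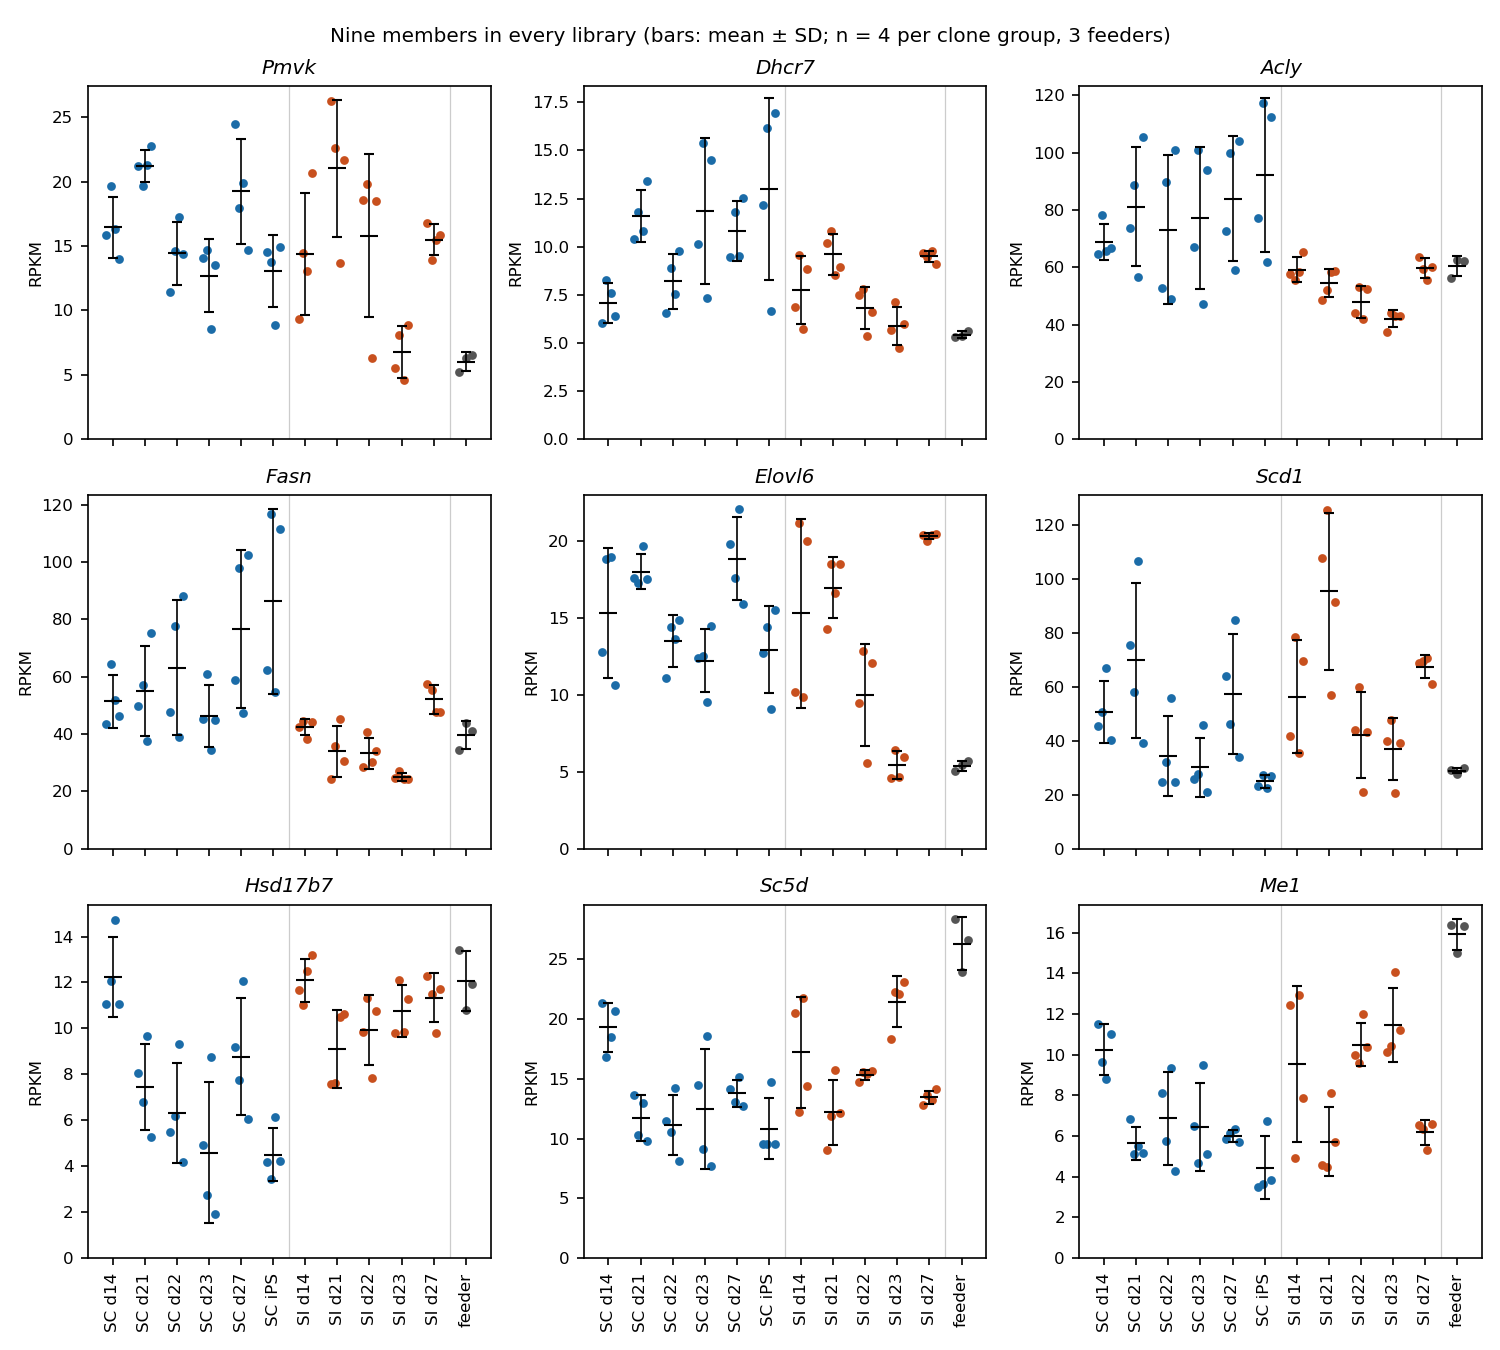
RPKM of 9 members (panels) in every library, by group on the x axis, with points for libraries and bars for the mean and SD. Mean Elovl6 was 5.42 RPKM in SI d23 and 5.39 in the feeders, and Pmvk was 6.78 and 6.04, while Me1 (11.5 and 15.9) and Sc5d (21.5 and 26.3) stayed below the feeder means.

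At d23 the SI libraries stood nearer to the feeder fibroblasts in most genes. Of the 17 members called, 16 had a d23 mean nearer to the feeder mean than the d21 mean was, as did 24 of all 31 members tested. Over all genes tested the share was 79.8% (9415 of 11796), the background for the 24 of 31. The share among called genes alone was not counted, so the 16 of 17 has no background. In the SC clones 23 of 31 members were nearer to the feeder mean at d23 than at d21, against 58.9% of 11975 genes. The 11 fibroblast markers were all higher in SI d23 than in d21, with sums of 6240 to 10691 RPKM against 1343 to 3382, and 8751 to 9284 in the feeders. The 8 cell cycle markers were all lower, with sums of 29.3 to 85.3 RPKM against 249.5 to 294. Of 5 tested leukocyte markers, 3 were higher and 1 lower, with sums of 175 to 328 RPKM against 96.6 to 139. Of 7 tested pluripotency markers 4 were lower, with sums of all 10 at 1.17 to 30.3 RPKM against 22.2 to 80.9. Of the 8 epithelial markers 3 were higher, with sums of 119.6 to 2381 RPKM against 72.8 to 446, and of 4 tested keratinocyte markers 2 were higher and 1 lower, with sums of 12.2 to 141 against 11.3 to 37.9. The part of these shifts in the members' changes was not tested. The 7 adipocyte markers summed to 0.49 to 3.59 RPKM at d23, and the 6 hepatocyte and visceral endoderm markers to 0.08 to 0.33 with Serpina1a and Ttr at 0.

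In the SC clones the same 2 days without doxycycline gave no member past the threshold (limma, 3.79% of 11975 genes called, 7 members at an unadjusted p under 0.05). The same clones were sampled at both times, and with the clone as a block 4 members were lower, Pmvk, Ebp, Scd1 and Scd2, where 13.4% of genes were called. Scd1 measured 75.5, 107, 57.9 and 39.2 RPKM at d21 and 25.9, 45.8, 27.6 and 21.1 at d23, a blocked change of -1.16 ± 0.13 (SE; adjusted p = 0.00813). Scd2 measured 241, 338, 159.8 and 116 RPKM at d21 and 133, 196, 93.8 and 61.1 at d23, a blocked change of -0.83 ± 0.11 (SE; adjusted p = 0.0104). Both fell in every clone, while the clones differed so widely at d21 that the groups overlapped. Pmvk went from 21.2, 21.3, 19.7 and 22.8 RPKM to 14.1, 8.55, 14.7 and 13.5, a blocked change of -0.72 ± 0.15 (SE; adjusted p = 0.0339). Without the SC2 library at d23, or without the SC4 library at d21, the fit without a block called 2 members, where 6.04% and 6.74% of all genes were called. The summed pluripotency markers were higher at d23 in every clone, at 767, 169.8, 1163 and 1400 RPKM against 260.3, 89.2, 654 and 844, and 3 of the 10 passed with the block. Epithelial sums were 493 to 1379 RPKM against 271 to 381, with 2 of 8 markers higher. In SC2 the fibroblast sum was 5385 RPKM at d23 and 1549 at d21, and the cell cycle sum 144 and 348. The part of these shifts in the members' changes was not tested.

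The regulators were uneven in SC. Srebf1 measured 17.4, 21.0, 17.5 and 14.5 RPKM at d21 and 12.6, 15.5, 13.8 and 12.03 at d23, lower in all 4 clones. Srebf2 measured 48.5, 52.7, 58.6 and 41.0 RPKM at d21 and 44.0, 47.2, 55.4 and 51.5 at d23, with overlap. Insig1 measured 14.6, 12.9, 19.8 and 17.4 RPKM at d21 and 17.2, 10.6, 35.0 and 28.0 at d23. Insig1 was higher at d23 in SC1, SC3 and SC4 and lower in SC2. Fasn measured 49.8, 37.7, 57.1 and 75.2 RPKM at d21 and 45.3, 34.6, 60.8 and 45.1 at d23. Idi1 measured 3.38, 2.43, 2.43 and 3.25 RPKM at d21 and 3.60, 2.02, 2.42 and 2.26 at d23. Sqle measured 15.5, 12.9, 14.1 and 12.8 RPKM at d21 and 15.0, 13.8, 14.7 and 11.8 at d23. The groups overlapped for all 3. None of these 6 genes passed the threshold with or without the block.

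**Figure D3:**
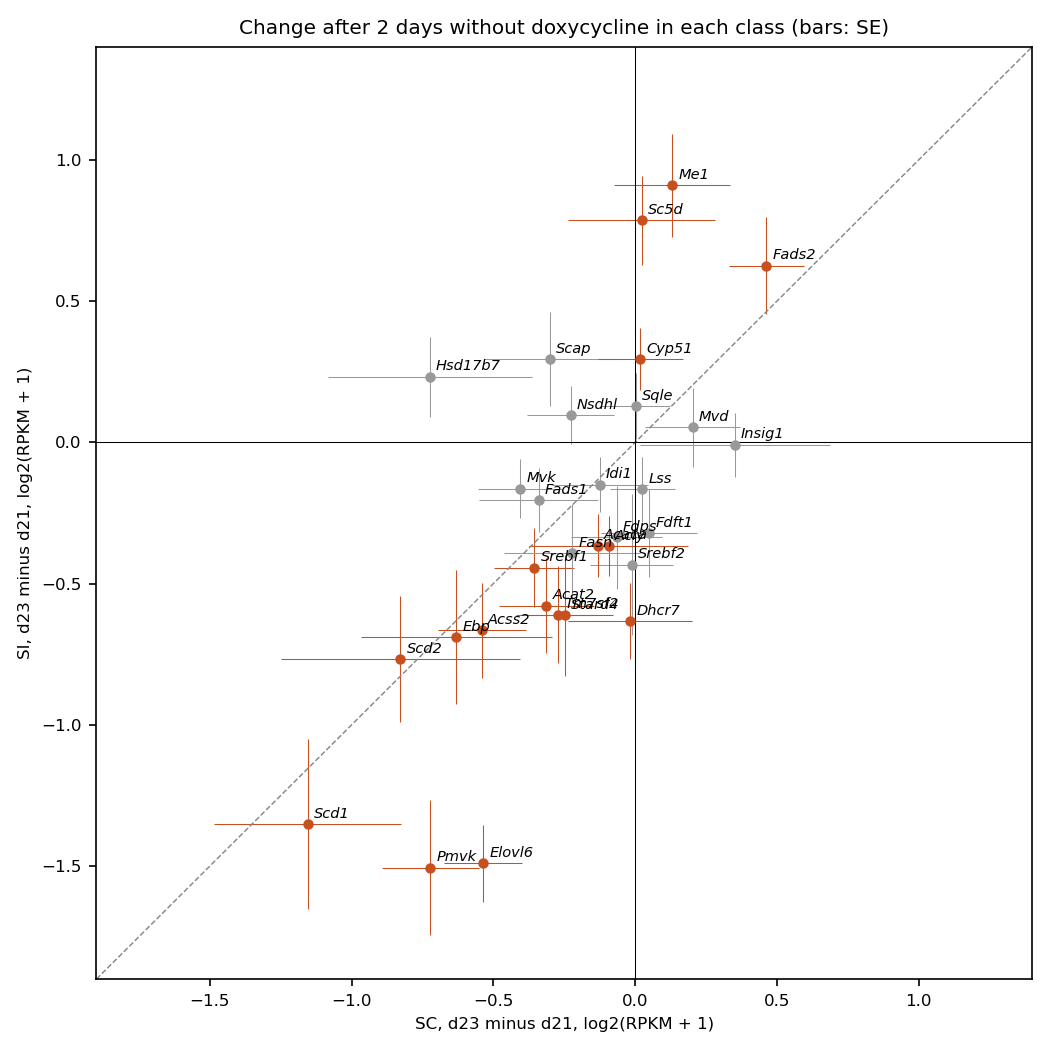
Change from d21 to d23 of the 31 measured members on the log2(RPKM + 1) scale, SC on the x axis and SI on the y axis, with SE bars, orange where the SI change passed the threshold, and a dashed line of equal change. Scd1 and Scd2 lie near the line, Elovl6 and Pmvk below it, and Me1, Sc5d and Hsd17b7 above it.

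The difference between the classes' changes was tested as an interaction. Without a block no member was called (0% of 12714 genes, 6 members at an unadjusted p under 0.05). With clones as blocks 6 members were called, against 23.2% of all genes. The SC change minus the SI change was 0.95 ± 0.17 (SE; adjusted p = 0.0327) for Elovl6, 0.78 ± 0.23 (SE; adjusted p = 0.0438) for Pmvk and 0.61 ± 0.18 (SE; adjusted p = 0.044) for Dhcr7. It was -0.96 ± 0.24 (SE; adjusted p = 0.0339) for Hsd17b7, a ketosteroid reductase of cholesterol synthesis, -0.78 ± 0.19 (SE; adjusted p = 0.0333) for Me1 and -0.76 ± 0.19 (SE; adjusted p = 0.0338) for Sc5d. Leaving out the SC2 library at d23 gave 7 members without a block (32.2% of all genes), and leaving out the SI3 library at d21 gave 3 (7.85%). For Scd1 and Scd2, which fell in all 8 clones, the blocked differences were 0.20 (95% interval -0.16 to 0.55) and -0.06 (-0.36 to 0.23).

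Set side by side at d23, the classes differed in 11 members, 7 higher and 4 lower in SC. This was 35.5% of the members, where 42.5% of 11805 genes were called, 23% higher and 19.5% lower. Of the 5 genes for acetyl-CoA, NADPH and fatty acid synthesis, 3 were higher and 1 was lower. The count depended on single libraries: it was 0 without SC1, SC3, SC4, SI2, SI3 or SI4, 3 without SI1 and 21 without SC2. Over all genes, 2 to 9 were called in the whole table without any 1 of the first 6 libraries, 15% without SI1 and 65.3% without SC2.

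Elovl6 measured 12.4, 9.56, 12.5 and 14.5 RPKM in SC and 6.44, 4.63, 4.66 and 5.96 in SI at d23. The lowest SC library was SC2, still above every SI library, and the difference was 1.04 ± 0.16 (SE; adjusted p = 0.0221). Dhcr7, the last enzyme of cholesterol synthesis, measured 10.2, 7.35, 15.4 and 14.5 RPKM in SC and 7.11, 5.67, 4.73 and 5.98 in SI, 0.86 ± 0.23 (SE; adjusted p = 0.0273). Fasn measured 45.3, 34.6, 60.8 and 45.1 RPKM in SC and 27.0, 24.6, 24.4 and 24.3 in SI, 0.84 ± 0.17 (SE; adjusted p = 0.0221). Both genes were apart in every library, with SC2 the lowest of the SC clones. Pmvk measured 14.1, 8.55, 14.7 and 13.5 RPKM in SC and 8.11, 5.50, 4.62 and 8.89 in SI, 0.83 ± 0.23 (SE; adjusted p = 0.0298), and here SC2 fell below SI4. Acly (0.81), Acaca (0.56) and the lanosterol synthase Lss (0.46) were the other members higher in SC.

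Hsd17b7 was the member most lowered in SC, at 4.94, 8.77, 2.73 and 1.93 RPKM against 12.1, 9.82, 9.85 and 11.3 in SI, -1.22 ± 0.34 (SE; adjusted p = 0.0293). Sc5d measured 14.5, 18.6, 9.12 and 7.72 RPKM in SC and 22.3, 18.4, 22.1 and 23.1 in SI, -0.81 ± 0.25 (SE; adjusted p = 0.0353). Me1 measured 6.51, 9.50, 4.67 and 5.13 RPKM in SC and 10.4, 10.1, 14.1 and 11.2 in SI, -0.77 ± 0.21 (SE; adjusted p = 0.0279). In all 3 the SC2 library was the highest of the SC clones, and for Sc5d it overlapped with SI. Scap measured 10.5, 16.2, 8.74 and 6.59 RPKM in SC and 15.3, 17.9, 22.0 and 14.7 in SI, -0.73 ± 0.25 (SE; adjusted p = 0.0438), with overlap through SC2. Scd1 and Scd2 did not pass the threshold between the classes, with differences of -0.28 and -0.51.

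**Figure D4:**
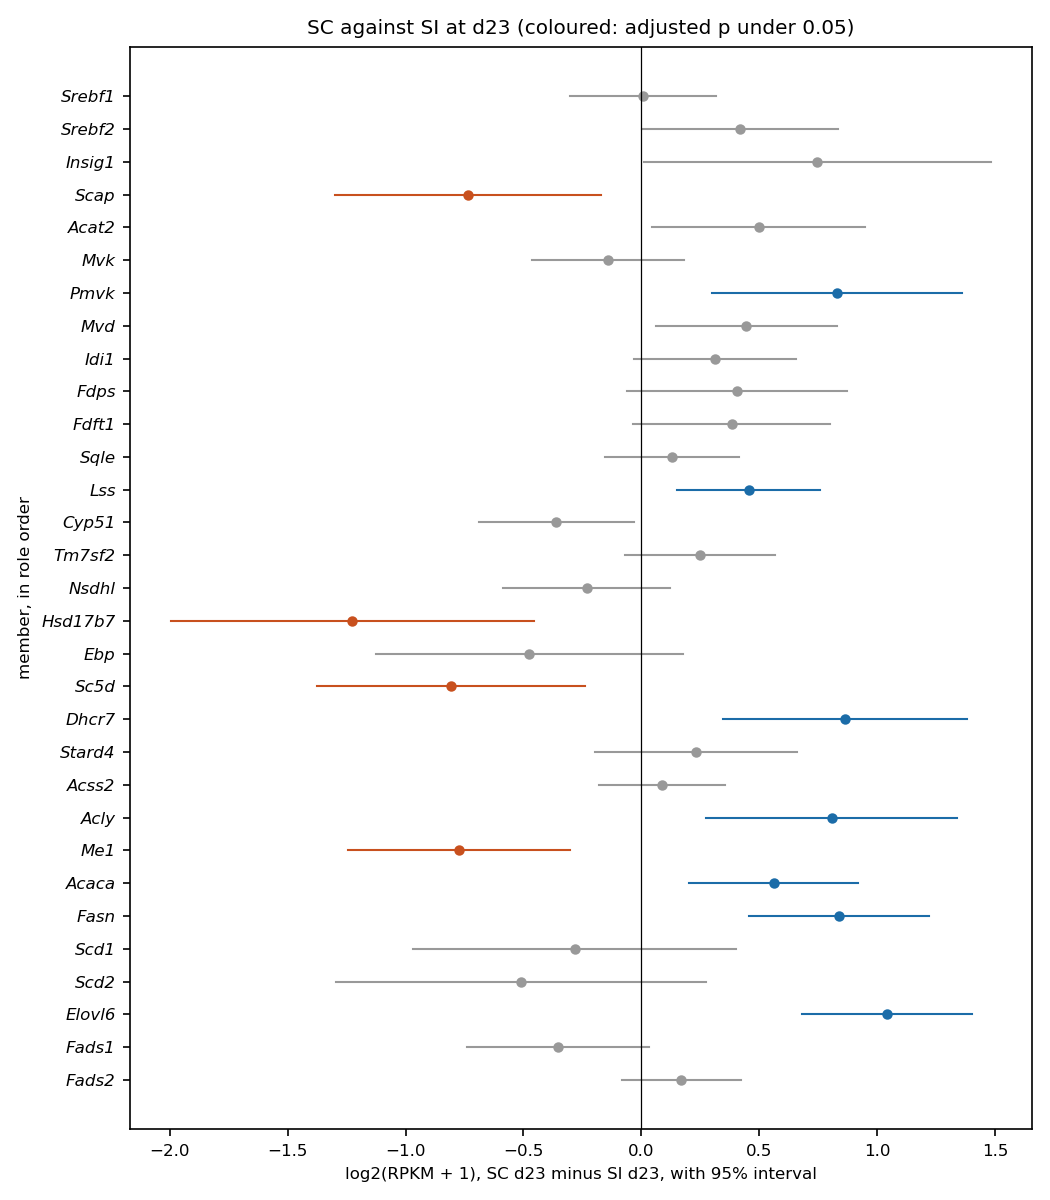
Difference SC minus SI at d23 for the 31 measured members (y axis, in role order) on the log2(RPKM + 1) scale (x axis), with 95% intervals, blue where higher in SC and orange where lower in SC past the threshold, grey otherwise. Elovl6 lies farthest to the right and Hsd17b7 farthest to the left.

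Several cell type markers moved with this comparison. All 8 cell cycle markers were higher in SC d23, with sums of 144 to 579 RPKM, and 10 of 11 fibroblast markers were lower, with sums of 934 to 5385. All 10 pluripotency markers were higher, with sums of 169.8 to 1400 RPKM against 1.17 to 30.3 in SI. Leukocyte sums did not overlap, at 79.6 to 154 RPKM in SC and 175 to 328 in SI, with 2 of 5 tested markers lower in SC. The SC2 library had the lowest cell cycle and pluripotency sums and the highest fibroblast sum of the SC libraries. The part of these shifts in the members' differences was not tested.

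Promoter sequence is shown for members that ended on opposite sides at d23, Fasn and Elovl6 higher in SC, Hsd17b7 and Sc5d lower. Each is the 250 bases before the start site in RefSeq (build GRCm38.p6), 5′ to 3′ on the strand of the gene, with CCAAT letters of either strand (CCAAT or ATTGG) in capitals. These 4 were picked after the results were seen, among members with 1 entry in the table.
Fasn, chr11:120824548-120824797, minus strand: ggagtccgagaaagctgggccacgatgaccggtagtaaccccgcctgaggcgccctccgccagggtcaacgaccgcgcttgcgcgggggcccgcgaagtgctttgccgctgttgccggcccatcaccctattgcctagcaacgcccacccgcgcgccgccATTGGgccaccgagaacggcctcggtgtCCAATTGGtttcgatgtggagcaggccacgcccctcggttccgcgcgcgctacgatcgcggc
Elovl6, chr3:129532136-129532385, plus strand: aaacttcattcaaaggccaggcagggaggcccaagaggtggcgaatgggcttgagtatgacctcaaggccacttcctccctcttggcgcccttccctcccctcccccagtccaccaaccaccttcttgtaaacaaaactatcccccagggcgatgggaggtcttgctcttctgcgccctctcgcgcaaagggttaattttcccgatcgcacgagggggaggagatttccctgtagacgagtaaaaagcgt
Hsd17b7, chr1:169969206-169969455, minus strand: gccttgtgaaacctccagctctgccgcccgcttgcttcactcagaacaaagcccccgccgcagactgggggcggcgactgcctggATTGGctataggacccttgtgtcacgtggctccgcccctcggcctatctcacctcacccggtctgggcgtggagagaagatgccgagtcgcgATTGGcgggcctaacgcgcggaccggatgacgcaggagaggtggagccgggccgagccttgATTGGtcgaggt
Sc5d, chr9:42264301-42264550, minus strand: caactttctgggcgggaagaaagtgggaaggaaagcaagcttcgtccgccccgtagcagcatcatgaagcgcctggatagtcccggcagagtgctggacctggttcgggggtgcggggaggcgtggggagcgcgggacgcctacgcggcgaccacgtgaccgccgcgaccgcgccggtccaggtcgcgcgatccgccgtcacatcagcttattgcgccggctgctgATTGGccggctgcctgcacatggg

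Of the 32 members, 25 had a promoter in that table. In all 3 letter strings were searched, on both strands. CCAAT, the box bound by NF-Y, was present in 19 of 25 members (76%), against 37.5% of 27025 genes. A gene counted where any of its entries held a match, and the 27025 genes were not limited to expressed ones. The E-box CACGTG was present in 5 members (20%), against 6.86% of genes. Of these, Hsd17b7, Sc5d and Scap were lower in SC at d23, Dhcr7 was higher and Insig1 was not called. The sterol regulatory element written as TCACNCCAC was present in 1 member (4%), Hmgcs1, against 1.22%. CCAAT was put in capitals because it was found most often. Both Fasn and Hsd17b7 held 3 CCAAT matches, Sc5d 1 and Elovl6 0. The Fasn matches at 62 and 59 bases before the start site overlap in the stretch CCAATTGG, while those of Hsd17b7 lie apart. A match describes letters in this window and not a bound site.

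At the other times no member passed the threshold between the classes. At d14 no member was called between SC and SI (limma, 0% of 11714 genes, 1 member at an unadjusted p under 0.05), and at d21 none (0% of 11757, 6 members). At d22, 1 day after removal, none was called (0% of 11880, 6 members), while leaving out SC2 gave 8 (34.1% of all genes). At d27 on the drug none was called (0.634% of 11513, 7 members), and 10 were called without SC2 (23.9% of all genes). Fasn at d27 measured 59.0, 47.2, 98.0 and 103 RPKM in SC and 55.5, 57.4, 47.7 and 47.8 in SI, so that SC3 and SC4 stood above all others. At d21 Fasn measured 49.8, 37.7, 57.1 and 75.2 RPKM in SC against 36.0, 24.1, 45.3 and 30.6 in SI, with overlap. One day after removal it measured 47.6, 39.1, 77.8 and 88.1 RPKM in SC and 40.7, 28.4, 30.4 and 33.9 in SI, and again SC3 and SC4 were the highest.

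Both stearoyl-CoA desaturases were lower after the first day without the drug. Scd1 at d22 measured 24.8, 56.0, 32.2 and 24.8 RPKM in SC and 59.9, 44.2, 21.2 and 43.4 in SI, lower than at d21 in all 8 clones. Scd2 at d22 measured 93.6, 174, 121 and 82.2 RPKM in SC and 206, 159.7, 86.0 and 155 in SI, again lower in all 8. Under continued doxycycline at d27 Scd1 measured 64.1, 84.9, 46.1 and 33.9 RPKM in SC and 69.4, 68.8, 70.5 and 61.0 in SI. Those d27 values all lay above the d23 value of the same clone. From d21 to d22, 15 members were lower and 2 higher in all 4 SC clones, and 13 lower and 2 higher in all 4 SI clones, as counts with no test. The share of all genes that moved alike in all 4 clones was not counted, so these counts have no background.

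**Figure D5:**
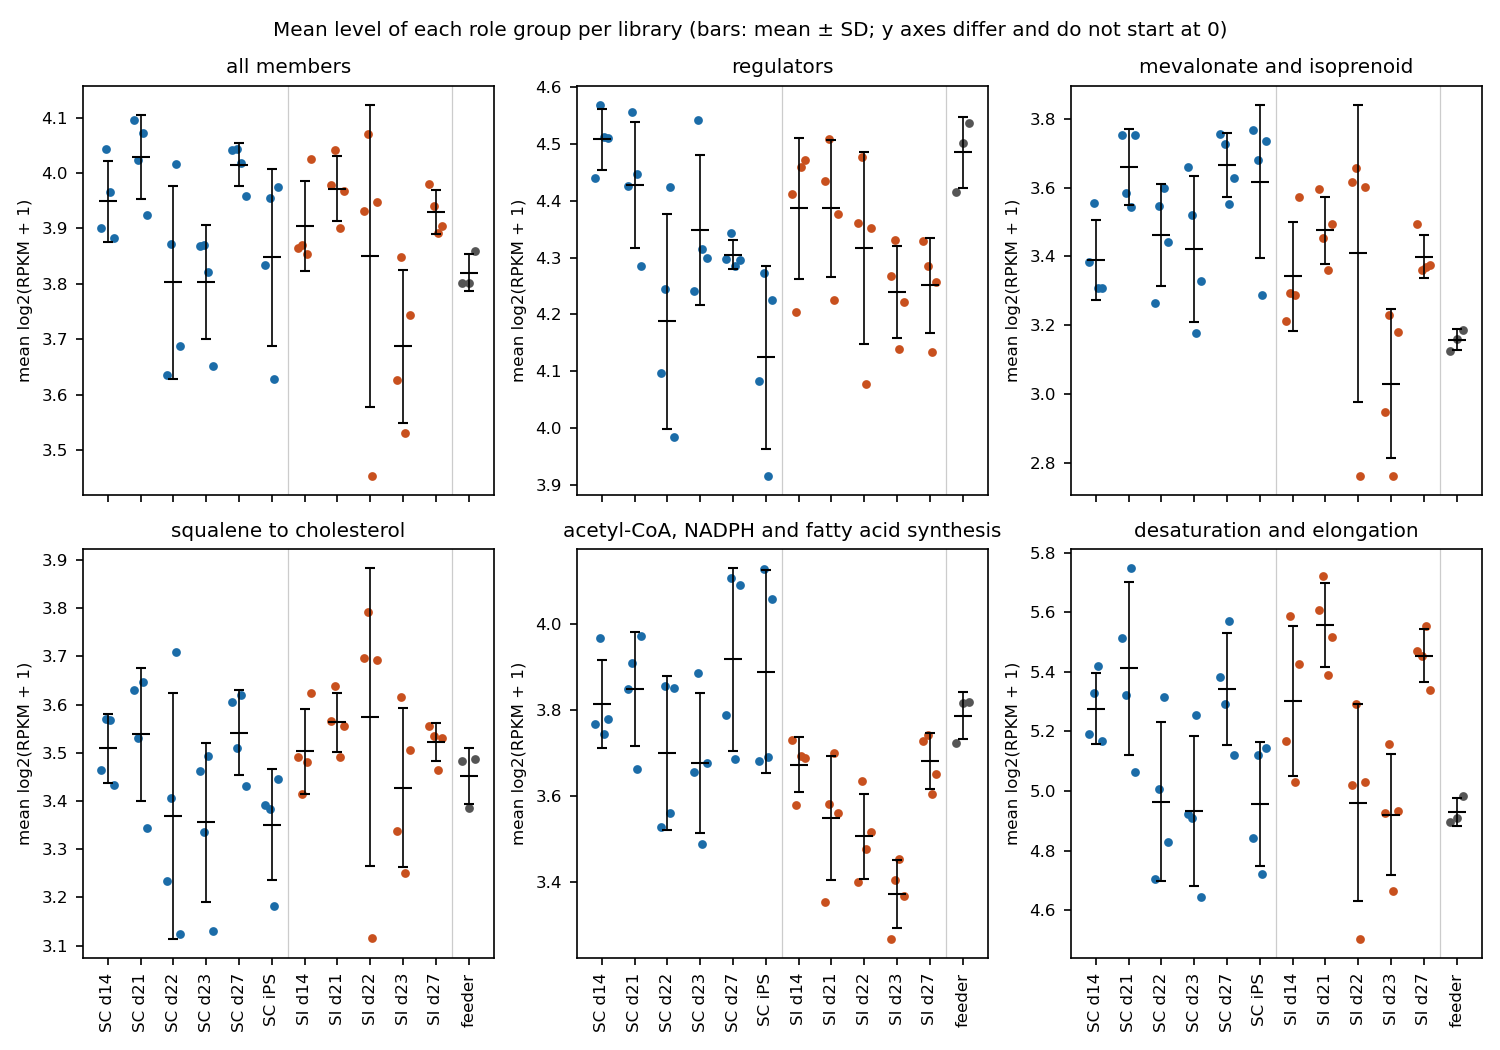
Mean log2(RPKM + 1) over the measured members of each role group (panels) per library, with points for libraries and bars for the mean and SD, and y axes that differ between panels and do not start at 0. The desaturation and elongation panel is lower at d22 and d23 than at d21 and d27 in both classes. SI3 at d22 lies far below the other SI libraries of d22 in the mevalonate and the squalene panels. In the mevalonate panel SI3 is as low at d23, at 2.76 at both times.

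On the way from d14 to d21 the SC clones changed in 10 of 31 members, 6 higher and 4 lower (32.3%), where 42.5% of 11806 genes were called, 22% higher and 20.6% lower. Of the 6 measured mevalonate and isoprenoid genes, 4 were higher. Dhcr7 measured 6.05, 7.60, 8.26 and 6.40 RPKM at d14 and 10.4, 10.8, 11.8 and 13.4 at d21, 0.65 ± 0.12 (SE; adjusted p = 0.00323). Acat2 measured 18.4, 21.9, 22.1 and 20.04 RPKM at d14 and 31.0, 27.6, 24.4 and 29.9 at d21, 0.44 ± 0.11 (SE; adjusted p = 0.0106). Neither gene's groups overlapped. Fdps, the farnesyl diphosphate synthase, measured 11.2, 8.96, 11.8 and 8.59 RPKM at d14 and 14.6, 11.9, 13.9 and 13.1 at d21, 0.38 ± 0.12 (SE; adjusted p = 0.0346). Mvd, the mevalonate diphosphate decarboxylase, measured 9.70, 8.50, 9.82 and 9.77 RPKM at d14 and 12.4, 10.1, 13.0 and 15.0 at d21, 0.37 ± 0.12 (SE; adjusted p = 0.0369). The count was 6 without SC2 or SC4 at d14, where 39.3% and 33.3% of all genes were called.

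The 4 members lowered in SC between d14 and d21 were Scap, Me1, Sc5d and Hsd17b7, which were also the 4 lower in SC than in SI at d23. Scap measured 22.2, 20.4, 22.5 and 26.1 RPKM at d14 and 14.0, 12.8, 12.4 and 11.1 at d21, -0.81 ± 0.11 (SE; adjusted p = 0.000691). Me1 measured 11.5, 8.81, 9.65 and 11.00 RPKM at d14 and 6.82, 5.50, 5.12 and 5.14 at d21, -0.76 ± 0.12 (SE; adjusted p = 0.00145). Each of the 2 genes was lower at d21 in all 4 clones. Sc5d measured 21.3, 18.5, 16.8 and 20.7 RPKM at d14 and 13.7, 13.0, 10.3 and 9.83 at d21, -0.68 ± 0.13 (SE; adjusted p = 0.00329). Hsd17b7 measured 11.1, 14.7, 12.1 and 11.1 RPKM at d14 and 8.05, 9.67, 6.78 and 5.29 at d21, -0.67 ± 0.17 (SE; adjusted p = 0.0116). All 11 fibroblast markers were lower and all 8 cell cycle markers higher at d21, and their part in these changes was not tested. In the SI clones no member was called between d14 and d21 (limma, 0% of 11738 genes, 7 members at an unadjusted p under 0.05), while leaving out SI3 at d21 gave 3 (13.9% of all genes). Without passing the threshold, Scap, Me1, Sc5d and Hsd17b7 were also lower at d21 than at d14 in all 4 SI clones. The SI changes were -0.43, -0.60, -0.45 and -0.39, and their difference from the SC changes was not tested.

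From d21 to d27 with the drug kept on, no member was called in SC (limma, 0.00847% of 11804 genes, 3 members at an unadjusted p under 0.05) or in SI (0% of 11590, 9 members). With the clone as a block 5 were called in SC, against 11.3% of genes. Fasn was higher by 0.44 ± 0.09 (SE; adjusted p = 0.0415), and Srebf2 (-0.36), Tm7sf2 (-0.34), Acss2 (-0.43) and Scd1 (-0.27) were lower. In SI, 17 members (54.8%) were called without SI3 at d21, where 48.6% of all genes were called. That library differed from the other SI libraries at d21, with Srebf2 at 31.9 RPKM against 51.2 to 70.2.

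Established iPS cells were compared with the SC clones at d27. No member was called (limma, 1.62% of 11675 genes, 14 members at an unadjusted p under 0.05). With the clone as a block 3 were called, against 12% of genes. Scd1 measured 23.3, 22.4, 27.4 and 26.8 RPKM in iPS cells and 64.1, 84.9, 46.1 and 33.9 at d27, a blocked change of -1.09 ± 0.26 (SE; adjusted p = 0.0498). Hsd17b7 measured 4.17, 6.16, 3.44 and 4.24 RPKM in iPS cells and 9.20, 12.1, 7.77 and 6.05 at d27, -0.81 ± 0.13 (SE; adjusted p = 0.0306) with the block. Both were lower in iPS cells in every clone. Fads2 measured 27.5, 25.5, 38.4 and 40.9 RPKM in iPS cells and 18.2, 14.5, 27.3 and 29.9 at d27, 0.57 ± 0.09 (SE; adjusted p = 0.0306) with the block. Without SC2 iPS 4 members were called (15% of all genes), and without SC4 at d27 there were 7 (23%). Pluripotency markers summed to 696 to 1172 RPKM in iPS cells and 72.2 to 739 at d27, and 3 of 10 passed with the block. Keratinocyte sums were 1.91 to 2.58 RPKM against 21.1 to 37.6, epithelial sums 80.2 to 211 against 222 to 329.6, and leukocyte sums 38.9 to 67.7 against 62.3 to 116. The part of these shifts in the members' changes was not tested.

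Against the feeder fibroblasts the iPS cells differed in 19 of 31 members, 11 higher and 8 lower (61.3%), where 79.9% of 12210 genes were called, 41.2% higher and 38.8% lower. Elovl6 measured 12.8, 9.09, 14.4 and 15.5 RPKM in iPS cells and 5.03, 5.44 and 5.69 in feeders, 1.10 ± 0.16 (SE; adjusted p = 0.000269). Dhcr7 measured 12.2, 6.64, 16.2 and 16.9 RPKM in iPS cells and 5.29, 5.39 and 5.63 in feeders, 1.04 ± 0.27 (SE; adjusted p = 0.00627). Fasn measured 62.4, 54.6, 117 and 111 RPKM in iPS cells and 34.5, 43.9 and 40.9 in feeders, 1.03 ± 0.28 (SE; adjusted p = 0.00758). In each the lowest iPS library, SC2, was above the highest feeder. Pmvk was higher by 0.98 ± 0.17 (SE; adjusted p = 0.000796), at 14.5, 8.90, 13.8 and 14.9 RPKM against 5.23, 6.31 and 6.58. Idi1 measured 4.04, 3.29, 3.70 and 4.32 RPKM against 2.24, 1.85 and 2.09, 0.66 ± 0.10 (SE; adjusted p = 0.000381).

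Me1 was the most lowered in iPS cells, at 3.48, 6.75, 3.66 and 3.85 RPKM against 16.4, 15.0 and 16.3 in feeders, -1.68 ± 0.19 (SE; adjusted p = 5.12e-05). Hsd17b7 measured 4.17, 6.16, 3.44 and 4.24 RPKM against 13.4, 10.8 and 11.95, -1.26 ± 0.16 (SE; adjusted p = 0.000108). Sc5d measured 9.52, 14.7, 9.58 and 9.53 RPKM against 28.4, 23.9 and 26.6, -1.23 ± 0.16 (SE; adjusted p = 0.000115). The groups did not overlap in any of these. Scap measured 8.54, 13.3, 8.80 and 9.30 RPKM against 22.5, 24.8 and 24.3, -1.20 ± 0.15 (SE; adjusted p = 8.56e-05). Mevalonate kinase (Mvk, -0.65), Cyp51 (-0.75), Acss2 (-0.23) and the fatty acid desaturase Fads1 (-0.62) were lower too. Of the 4 regulators, Scap was the one past the threshold. Srebf1 measured 10.7, 8.43, 14.0 and 14.0 RPKM against 12.6, 14.1 and 13.7, with overlap. Srebf2 measured 37.0, 25.9, 38.0 and 35.9 RPKM against 29.0, 32.3 and 32.2. Insig1 measured 18.4, 13.3, 23.3 and 20.5 RPKM against 20.6, 19.3 and 22.5. Sqle measured 16.1, 12.8, 16.2 and 16.1 RPKM against 17.8, 16.2 and 17.6. These 4 genes overlapped between iPS cells and feeders, and none passed the threshold. Scd1 measured 23.3, 22.4, 27.4 and 26.8 RPKM against 29.3, 27.8 and 29.8. Scd2 measured 101, 90.6, 129 and 135 RPKM against 121, 115 and 130.4. The differences of -0.21 for Scd1 and -0.12 for Scd2 did not pass. In the same comparison all 10 pluripotency and all 8 cell cycle markers were higher in iPS cells and all 11 fibroblast markers lower, and their part in the members' differences was not tested.

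Genes around these routes were read from 4 more lists. In SI at d23 against d21, where 32% of all genes were lower and 22.7% higher, 3 of 9 tested genes of other sterol synthesis and SREBP processing were lower and 1 was higher. Of 9 tested genes of LXR and sterol efflux, 5 were higher and 1 was lower. Apoe, a lipoprotein that carries cholesterol, measured 21.9 ± 6.31 RPKM against 3.77 ± 0.412 (SD, n = 4), Soat1, which esterifies cholesterol, 25.6 ± 0.970 against 13.3 ± 0.942, and the transporter Abcg1 5.31 ± 0.679 against 1.99 ± 0.549. Among 10 tested lipogenic genes, 3 were higher and 4 lower, with Dgat2, the last enzyme of triglyceride synthesis, at 1.92 ± 0.434 RPKM against 14.9 ± 1.39 (-2.46) and Lpin1, a phosphatidate phosphatase, at a change of -1.34. Acsl4, which activates polyunsaturated fatty acids, was higher by 1.57. Fatty acid oxidation genes split, with 1 higher and 2 lower of 11.

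Between the classes at d23, where 42.5% of all genes were called, 1 of 9 tested genes of LXR and sterol efflux, 2 of 9 lipogenic and 3 of 11 oxidation genes were called. Leaving out SC1, SC3, SC4, SI2, SI3 or SI4 left 2 to 9 genes called in the whole table. Apoe was higher in SC, at 181 ± 122 RPKM (SD, n = 4) against 21.9 ± 6.31 in SI (2.69), and Lpin1 was higher by 0.68. Elovl1, an elongase of saturated fatty acids, was lower (-1.09). Of the fatty acid oxidation genes, Acadm was higher (0.65) and Acadvl was lower (-0.66). No gene of other sterol synthesis and SREBP processing was called among 9 tested. From d14 to d21 in SC, where 42.5% of all genes were called, Apoe (2.87), Acadm (0.80) and the acyl-CoA synthetase Acsl3 (0.79) were higher, and Soat1 (-0.67), Acsl4 (-0.93) and the sterol carrier Npc2 (-0.71) were lower. In iPS cells against feeders, where 38.8% of all genes were lower and 41.2% higher, 9 of 11 oxidation genes were lower and Acadm was higher (1.32).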

How the data were processed

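The authors sequenced messenger RNA from 47 libraries (Illumina TruSeq, per the labels' protocols) and deposited 1 table of 22632 genes. The submitters' processing notes name CASAVA 1.8 and genome build mm9. The sources used here do not name the aligner, annotation or filters. The deposited values were read as RPKM, the unit being inferred from the values: summed RPKM times gene length gave 0.788 to 0.998 of the total expected over 20750 genes with a length in GENCODE M21. Times follow the characteristics of each library, which state the d22 and d23 schedule differently from the treatment text.

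Read totals were looked for in the steps of low values of 625 genes up to 600 bases. A first rule (z above 5) found steps in 30 of 47 libraries, implying 31.5 to 123.1 megareads. A looser rule (score above 0.3), tried after that result was seen, gave 43 libraries and 26.9 to 123.1 megareads. The values hold up to a whole multiple, the highest is doubtful, and no test used them. Summed RPKM ran from 189172.4 to 245694.8.

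Comparisons were fitted with limma 3.58.1 in R 4.3.3 (lmFit, eBayes with trend) on log2(RPKM + 1), each on its own groups, for genes that reached 1 RPKM in a number of libraries equal to the smaller group or more. Two-sided p-values were adjusted over all genes tested (Benjamini-Hochberg) with a threshold of 0.05. A fold on this scale understates the change of low genes. The script was tested on simulated data. Alternatives were a pseudocount of 0.1, no filter, median ratio rescaling, all 12 groups in one fit, the clone as a replicate block, and each library left out. Within a class, libraries of 1 clone share its name in the titles, which pairs them. Their deviations correlated at 0.17 to 0.92, except for clone 2 in SI d21 against d14 (-0.36). SC and SI share only numbers.

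Members, lists and the rule for named genes were chosen with earlier results of these data known. Library values were given for 9 anchor genes and for up to 4 rises and 4 falls per comparison among members past the threshold with at least 5 RPKM, and up to 3 genes per other list by smallest adjusted p. Some genes of the other lists are not reported here. The genes with blocked values, the further library values and the 4 promoters were added after the values were seen. Tables and figures used Python 3.11.15, pandas 2.3.3 and matplotlib 3.10.9.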

Additional observations from a re-analysis of the deposited data

Results flagged for a closer look

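Values of a role group or an anchor gene were checked for a library far from the other 3 of its group. Of 154 such groups 13 stood out, where chance gives about 1 in 20. The SI4 d14 library had the mean log2 level of all members at 4.03 (others 3.85 to 3.87) and Srebf2 at 41.4 RPKM (others 33.7 to 34.7). The SI3 d22 library had the mean log2 level of mevalonate and isoprenoid at 2.76 (others 3.60 to 3.66), the mean log2 level of squalene to cholesterol at 3.12 (others 3.69 to 3.79) and Idi1 at 1.41 RPKM (others 3.19 to 3.52). The SI2 d27 library had the mean log2 level of mevalonate and isoprenoid at 3.49 (others 3.36 to 3.38). The SC3 d14 library had the mean log2 level of acetyl-CoA, NADPH and fatty acid synthesis at 3.97 (others 3.74 to 3.78). The SI1 d14 library had Insig1 at 11.4 RPKM (others 14.6 to 15.2). The SC3 d27 library had Idi1 at 4.21 RPKM (others 3.40 to 3.53). The SC2 d27 library had Sqle at 12.9 RPKM (others 15.6 to 16.1). The SC2 iPS library had Sqle at 12.8 RPKM (others 16.1 to 16.2). The SI3 d21 library had Sqle at 13.4 RPKM (others 10.6 to 10.9). The SI1 d23 library had Fasn at 27.0 RPKM (others 24.3 to 24.6).

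The change from d21 to d23 differed between the classes, by the interaction with clones as blocks in limma, for 6 members. The same test called 23.2% of 12714 genes. SC minus SI was 0.78 for Pmvk, 0.61 for Dhcr7, 0.95 for Elovl6, -0.96 for Hsd17b7, -0.76 for Sc5d and -0.78 for Me1. Without the block none passed.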

How the results depend on the processing

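With a replicate block the members called went from 11 to 5 for SC against SI at d23, and from 0 to 4, 5, 3 and 6 for SC d23 against d21, SC d27 against d21, iPS against d27 and the difference of changes. In that order the blocked fits called 20.1%, 13.4%, 11.3%, 12% and 23.2% of all genes. The classes share only numbers: their same-numbered deviations correlated at -0.78 to 0.28, and in none of the 5 class comparisons did every library correlate best with its own number. Within a class, all 4 pairs did so for SC d21 against d14 and for d23 against d21 in SC and SI. Only 2 of 4 did for SC d27 against d21 and for iPS against d27, 1 for SI d21 against d14 and 3 for SI d27 against d21. The block changed no other count by over 1.5 times. With all 12 groups in one fit, counts went from 0 to 5 for SC against SI at d22, 5 for SC d23 against d21, 4 for SI d21 against d14, 1 for SI d27 against d21, 4 for iPS against d27 and 3 for the difference of changes. In that order this fit called 29.2%, 15.9%, 18.8%, 11.8%, 18.3% and 14.7% of all genes. Leaving out 1 library gave 0 to 0 at d14 and d21 between classes, 0 to 8 at d22, 0 to 21 at d23 and 0 to 10 at d27. It gave 6 to 11 for SC d21 against d14, 0 to 2 for SC d23, 0 to 0 for SC d27, 0 to 3 for SI d21 against d14, 12 to 20 for SI d23, 0 to 17 for SI d27, 0 to 7 for iPS against d27, 15 to 23 for iPS against feeders and 0 to 7 for the difference of changes. The calls over all genes moved in these fits too. For SI d23, 12 members went with 5360 of 12016 or 5476 of 12013 genes, and 20 with 7563 of 12199. For iPS against feeders, 15 went with 9118 of 11868 to 9315 of 12497 genes, and 23 with 10602 of 12180. For SC d21 against d14, 11 went with 5017 of 11946 genes. Of 985 values of 75 member results under alternatives, 0 changed sign, 164 lost the call and 41 gained it. The 75 were picked because they were called in the main fit or in some of the blocked fits. The gains therefore include the blocked calls by which results were picked. Fits with no filter, all 12 groups or a block return the same change, so the sign could not move there. The causes were not tested. Rescaling moved the share of higher genes among all calls from 26% to 40% for SC d23 against d21 and from 25.9% to 45.5% for iPS against d27, and the median gene there by 0.11. Read totals are uncertain, so no counting error is given.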
